A study of Homo sapiens with 4 samples.

Results

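Triglyceride is built on the endoplasmic reticulum and kept in lipid droplets, and 10 genes of this system were followed in hepatocellular carcinoma (HCC) cells at low and high glucose. They were chosen by name and were found by their symbols among the 59652 genes of the count table: PLIN2, PLIN3, PLIN4 and PLIN5, which encode proteins of the droplet coat, GPAM, LPIN1, DGAT1 and DGAT2, which encode enzymes of synthesis, and PNPLA2 and PNPLA3, which encode patatin-like lipases. All 10 had reads in all 4 libraries. The libraries are Huh7 cells at 5 mM glucose, Huh7 cells at 25 mM glucose, PLC cells at 5 mM glucose and PLC cells at 25 mM glucose, each after 48 h. Both lines are established HCC lines labelled WT (PLC is also called PLC/PRF/5), and all 4 cultures had the same glucose-free DMEM with serum and antibiotics, to which the glucose was added.

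Each condition had 1 library, so no difference between conditions has a replicate check, and glucose cannot be told apart from any other difference between 2 cultures. Reads on genes came to between 16049686 (PLC, 25 mM) and 30279716 (PLC, 5 mM) per library. Markers of the labelled cell type were present: 13 of 13 hepatocyte and HCC genes had over 0.5 FPKM in both Huh7 libraries and 12 of 13 in both PLC libraries, where transthyretin (TTR) was the missing gene. The summed FPKM of that list was 5759 and 5944 in Huh7 cells against 1175 and 2080 in PLC cells at 5 and 25 mM. Of the adipocyte list only CFD passed 0.5 FPKM, with ADIPOQ listed at 0 in every library. Of the 4 endothelial genes only PECAM1 did, in Huh7 cells, and of the leukocyte list only LYZ and CD14 did, with CD3E at 0 reads. Of the fibroblast list LUM passed in Huh7 cells and COL3A1 in PLC cells.

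As background, fatty acids are first joined to glycerol 3-phosphate by an acyltransferase such as GPAM, the mitochondrial enzyme also called GPAT1. An AGPAT enzyme adds another acyl chain, a lipin such as LPIN1 removes the phosphate, and DGAT1 or DGAT2 adds the last acyl chain to give triglyceride. Perilipins coat the droplet and limit the access of lipases, of which PNPLA2 (adipose triglyceride lipase) starts the breakdown. In hepatocytes the droplet feeds secretion and oxidation of fat, and several of these genes are known targets of lipogenic and fatty acid-sensing transcription factors.

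To compare the levels of different genes, FPKM was used, the reads of a gene divided by its length and by the reads of the library. In Huh7 cells at 5 mM glucose the order was PLIN2 (40.5 FPKM), GPAM (28.7), PLIN3 (10.9), DGAT1 (7.78), PNPLA3 (6.64), LPIN1 (6.44), PNPLA2 (6.25), DGAT2 (5.38), PLIN4 (0.763) and PLIN5 (0.398). In PLC cells at 5 mM it was PLIN3 (36.2 FPKM), PLIN2 (28.5), PNPLA2 (6.96), DGAT1 (5.05), GPAM (4.78), LPIN1 (2.58), DGAT2 (2.04), PLIN4 (0.371), PNPLA3 (0.197) and PLIN5 (0.0137). With no replicates, the spread that would separate neighbours in these orders could not be measured. Close pairs such as PNPLA3 and PNPLA2 in Huh7 cells at 5 mM did not differ beyond counting error (ratio of FPKM 1.06, 95% interval 0.933 to 1.21). At 25 mM the order began with PLIN2, GPAM and PLIN3 in Huh7 cells, as at 5 mM, and with PLIN3, PNPLA2 and PLIN2 in PLC cells, where PNPLA2 had 9.45 and PLIN2 8.74 FPKM. In these bulk samples fewer cells of a type and less RNA per cell cannot be told apart.

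**Figure D1:**
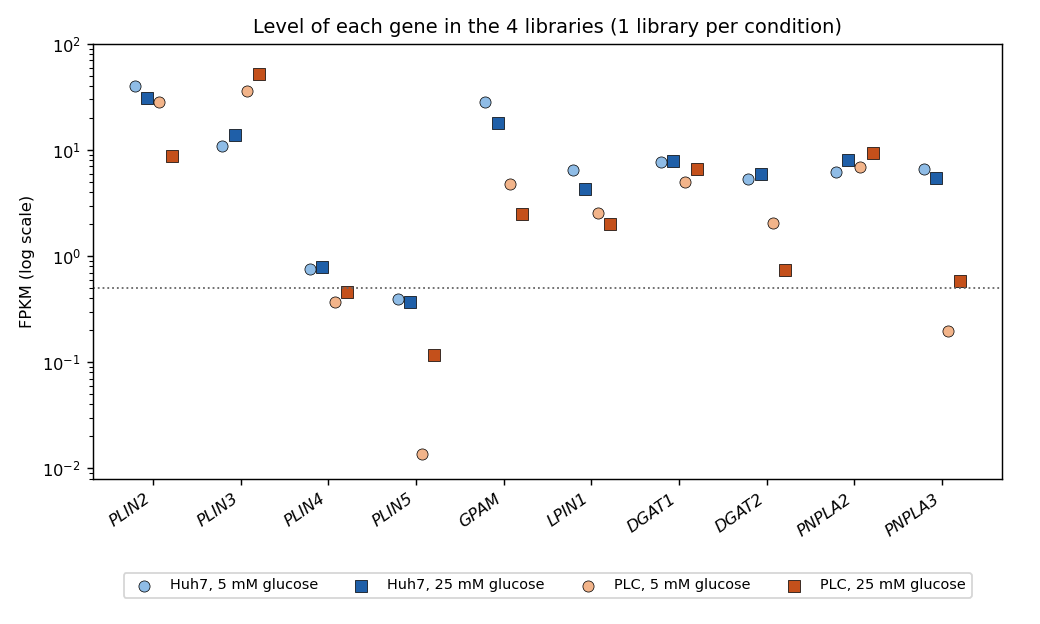
FPKM (vertical axis, log scale) of the 10 genes in the 4 libraries, 1 point per library, with circles for 5 mM and squares for 25 mM glucose, blue for Huh7 and orange for PLC cells, and the dotted line at 0.5 FPKM. GPAM, DGAT2 and PNPLA3 sit higher in both Huh7 libraries than in both PLC libraries, PLIN3 sits lower there, and PLIN2 in PLC cells stands at 28.5 FPKM at 5 mM and 8.74 FPKM at 25 mM.

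The study used these libraries to screen for long non-coding RNAs that differ with glucose, and a comparison with the same limits was made here for the 10 genes. The study took FPKM of transcripts from StringTie and names no added value, while FPKM here came from gene counts. Within a line, the ratio of the 25 mM to the 5 mM FPKM was taken after adding 0.1 to both, and a gene was called where 0.5 FPKM was exceeded in either library and the ratio was above 1.5 or below 0.67, the limits used in the study. Intervals are exact (Clopper-Pearson) 95% intervals of the ratio with nothing added, they cover counting error only, and reads are not independent molecules. In Huh7 cells 2 members were called, GPAM and LPIN1, both lower at 25 mM. In PLC cells 4 were called, with PLIN2, DGAT2 and GPAM lower and PNPLA3 higher. Only GPAM was called in both lines. In the background, 27.8% of all genes were called in Huh7 cells (14.1% higher and 13.7% lower) and 11.6% of protein-coding genes (5.91% and 5.71%). In PLC cells 43.3% of all genes were called (26.2% higher and 17.0% lower) and 30.3% of protein-coding genes (18.8% and 11.5%). The members' counts were 2 of the 9 and 4 of the 8 with the FPKM needed, near the shares of all genes. The shares of protein-coding genes are lower, and so few genes give no result about the members. The interval excluded 1 for 7 members in Huh7 cells (3 above, 4 below), beside 44.4% of all and 60.9% of protein-coding genes, and for 9 in PLC cells (5 above, 4 below), beside 55.9% and 74.8%. These interval counts take all 10 members, while the shares beside them take only genes with the FPKM needed. All 10 together had a median log2 ratio of -0.03 for Huh7 and 0.33 for PLC cells, where the protein-coding genes averaging more than 0.5 FPKM had 0.04 and 0.06.

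For PLIN2, the perilipin found on droplets in most cell types, Huh7 cells gave 4340 reads at the low and 4692 at the high concentration (40.5 and 31.1 FPKM). In PLC cells it had 4318 and 703 reads (28.5 and 8.74 FPKM). Both lines were lower at 25 mM, and the PLC library at 25 mM was the lowest of the 4. The ratio was 0.769 in Huh7 cells (interval 0.737 to 0.801), within the limits, and 0.310 in PLC cells (0.283 to 0.333). Among protein-coding genes with the FPKM needed, 1.02% had a lower ratio than PLIN2 in PLC cells.

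PLIN3, a perilipin that moves between cytosol and droplets, had 637 and 1151 reads in Huh7 cells (10.9 and 14.0 FPKM) and 3002 and 2306 reads in PLC cells (36.2 and 52.5 FPKM). It was higher at 25 mM in both lines, with ratios of 1.28 (interval 1.16 to 1.42) and 1.45 (1.37 to 1.53), both inside the limits. PLIN4 had 106, 155, 73 and 48 reads in Huh7 cells at 5 and 25 mM and PLC cells at 5 and 25 mM, and its ratios of 1.03 and 1.19 had intervals that included 1. PLIN5, the perilipin of oxidative tissues, had 41, 53, 2 and 9 reads in the same order and stayed under 0.5 FPKM everywhere. With 2 reads at 5 mM, its PLC ratio of 8.49 without the added 0.1 has an interval of 1.76 to 80.8.

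For PLIN2 and GPAM, lower at 25 mM in both lines, and for PLIN3, higher in both, the 250 bases before the RefSeq start are shown (GRCh38.p14, RefSeq promoter table, 5′ to 3′ on the strand of the gene). PLIN2 lies at chr9:19127493-19127742 on the minus strand, GPAM at chr10:112183766-112184015 on the minus strand and PLIN3 at chr19:4867668-4867917 on the minus strand. Capitals mark matches on either strand to the E-box (letters CACGTG), the CCAAT box, the GC box (letters GGGCGG, which can overlap each other) and the TATA box (letters TATAAA).
PLIN2: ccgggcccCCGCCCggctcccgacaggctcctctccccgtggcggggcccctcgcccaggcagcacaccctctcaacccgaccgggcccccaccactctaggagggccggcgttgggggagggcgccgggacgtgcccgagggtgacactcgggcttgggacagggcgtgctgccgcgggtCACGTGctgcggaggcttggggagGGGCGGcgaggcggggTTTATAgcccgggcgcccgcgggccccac
GPAM: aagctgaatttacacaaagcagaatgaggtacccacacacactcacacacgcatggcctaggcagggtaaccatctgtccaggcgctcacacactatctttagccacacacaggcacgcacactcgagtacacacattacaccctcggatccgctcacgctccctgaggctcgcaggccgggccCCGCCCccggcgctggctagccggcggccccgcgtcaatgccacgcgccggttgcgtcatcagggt
PLIN3: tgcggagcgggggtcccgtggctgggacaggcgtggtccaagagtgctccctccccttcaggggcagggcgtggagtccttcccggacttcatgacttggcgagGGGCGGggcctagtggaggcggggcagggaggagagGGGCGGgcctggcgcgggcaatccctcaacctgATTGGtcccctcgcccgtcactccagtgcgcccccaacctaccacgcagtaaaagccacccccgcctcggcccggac

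The table held 9 promoters for 7 of the 10 members, because LPIN1 has 3 starts, and gave none for DGAT1, DGAT2 and PNPLA3. The E-box, the core of the sites bound by ChREBP, SREBP and USF factors, was found in 1 of the 9, that of PLIN2, where it begins 69 bases before the start. It occurs in 6.34% of the 35116 promoters of the same length. A TATA box was also found in the PLIN2 promoter alone (10.7% of all promoters), and the CCAAT box in those of PLIN3, PLIN4 and PLIN5 (32.0%). The GC box was found in 7 of the 9 promoters, of 6 members, beside 42.6% of all. AGGTCA, the nuclear receptor half-site, was in PNPLA2 alone (12.1%), as was TCACCCCAC, a sterol element (0.362%). TGATGCAA, an element of C/EBP-ATF factors, was in PLIN4 alone (0.772%), and GTTAAT, an HNF1 half-site, was in none (6.23%). A match is a description of the letters and not of binding. The PLIN2 and GPAM starts of RefSeq lie 21798 and 31612 bases inside the outermost starts that the count table uses for these genes.

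Among the enzymes of synthesis, GPAM had 6007 and 5283 reads in Huh7 cells (28.7 and 17.9 FPKM) and 1420 and 391 reads in PLC cells (4.78 and 2.48 FPKM). Its ratio was 0.626 in Huh7 cells (interval 0.602 to 0.649) and 0.529 in PLC cells (0.463 to 0.581), the only member past the limits in both lines. LPIN1, a phosphatidate phosphatase, had 1632 and 1527 reads in Huh7 cells (6.44 and 4.28 FPKM) and 926 and 381 reads in PLC cells (2.58 and 2.001 FPKM). Its Huh7 ratio of 0.6699 (interval 0.620 to 0.713) lies just below the limit of 0.67, and its PLC ratio was 0.785 (0.687 to 0.876).

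The 2 enzymes of the last step had ratios on different sides of 1 in PLC cells. DGAT1 had 687 and 988 reads in Huh7 cells (7.78 and 7.95 FPKM) and 631 and 444 reads in PLC cells (5.05 and 6.70 FPKM). Its ratio was 1.02 in Huh7 cells (interval 0.926 to 1.13, and below 1 with TMM scaling, at 0.995) and 1.32 in PLC cells (1.17 to 1.501). DGAT2 had 909 and 1410 reads in Huh7 cells (5.38 and 5.93 FPKM) and 488 and 93 reads in PLC cells (2.04 and 0.733 FPKM). The ratio of DGAT2 was 1.10 in Huh7 cells (interval 1.01 to 1.199) and 0.390 in PLC cells (0.285 to 0.450). The level of DGAT2 was highest in the 2 Huh7 libraries and lowest in PLC cells at 25 mM.

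Of the lipases, PNPLA2 had 512 and 919 reads in Huh7 cells (6.25 and 7.97 FPKM) and 807 and 581 reads in PLC cells (6.96 and 9.45 FPKM). It was higher at 25 mM in both lines, with ratios of 1.27 (interval 1.14 to 1.42) and 1.35 (1.22 to 1.51) inside the limits. PNPLA3, a lipase and acyltransferase of droplets, had 453 and 522 reads in Huh7 cells (6.64 and 5.43 FPKM) and 19 and 30 reads in PLC cells (0.197 and 0.585 FPKM). Its ratio was 0.821 in Huh7 cells (interval 0.721 to 0.931) and 2.31 in PLC cells with the added 0.1, where the interval without it is 1.62 to 5.60. The PLC call rests on 19 and 30 reads, and 1 in place of 0.1 added gave a ratio of 1.33.

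**Figure D2:**
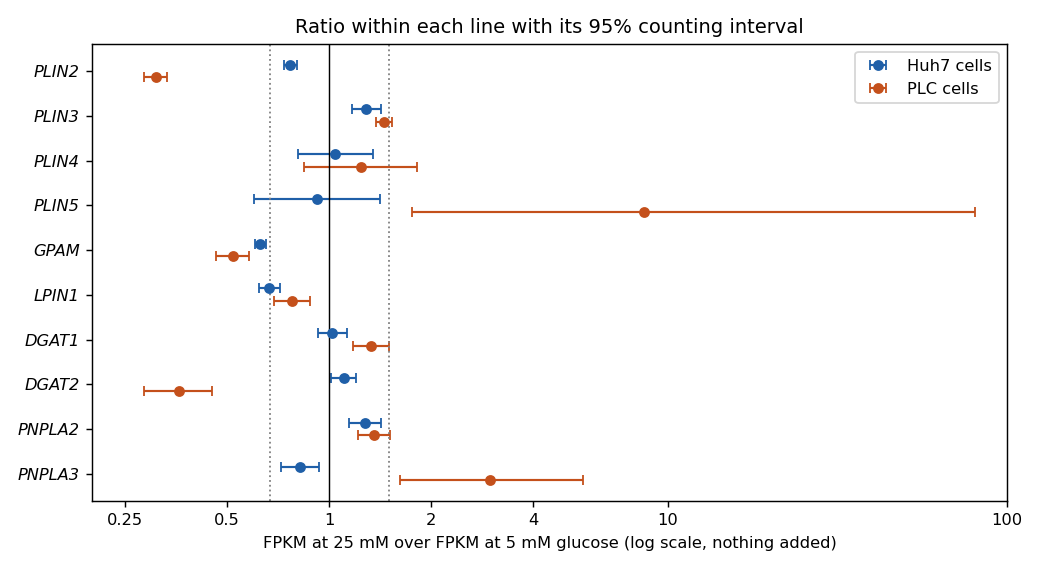
Ratio of the 25 mM to the 5 mM FPKM, with nothing added (horizontal axis, log scale), for each gene in Huh7 (blue) and PLC cells (orange). Bars are exact 95% intervals for counting error, and dotted lines stand at 0.67 and 1.5. The PLC values of PLIN2, DGAT2 and GPAM lie left of their Huh7 values with no overlap of the intervals. Those of DGAT1, PNPLA3 and PLIN5 lie right of their Huh7 values, also with no overlap. No share over all genes stands beside this.

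For an effect common to Huh7 and PLC cells, an edgeR quasi-likelihood fit took line and glucose as terms. It has 1 residual degree of freedom, which is how far the glucose difference departs between the lines. The spread of each gene was moderated with that of all genes tested, so the p-values rest in large part on other genes. The lines are different cells and not repeats of 1 culture, so no p-value measures the spread between repeat cultures. None of the 10 members had an adjusted p-value under 0.05 (0 of 10, Benjamini-Hochberg over 23217 genes), beside 0.379% of all genes tested (0.0646% higher and 0.314% lower) and 0.582% of protein-coding genes. Unadjusted, 3 of the 10 members were under 0.05, as were 8.51% of all genes. GPAM had a log2 fold change of -0.89 (standard error 0.22, edgeR unadjusted p = 0.0015, adjusted p = 0.130), lower in 2 of 2 lines. PLIN2 had -1.12 (standard error 0.30, edgeR unadjusted p = 0.00248, adjusted p = 0.156), also lower in 2 of 2 lines. LPIN1 had -0.56 (standard error 0.24, edgeR unadjusted p = 0.0366, adjusted p = 0.527), again lower in both. DGAT2 had -0.70 (standard error 0.36, edgeR adjusted p = 0.680), and the other 6 members lay between 0.10 (PLIN4) and 0.76 (PLIN5), with edgeR adjusted p from 0.761 to 0.988. By DESeq2 with the same terms 1 member was called (GPAM, adjusted p = 0.0184) among 194 genes in all, against 88 by edgeR. By limma-voom 0 members were called, with 3 under 0.05 unadjusted, among 92 genes called and 2219 unadjusted. By edgeR without a filter on low counts 2 were called (PLIN2, adjusted p = 0.00156, and GPAM, 0.0254) among 526 genes.

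Of the hepatocyte and HCC markers, 5 of 13 were past the upper limit in PLC cells and none past the lower. Past the upper limit there were 26.2% of all and 18.8% of protein-coding genes. In Huh7 cells 2 of 13 were past the upper limit, beside 14.1% and 5.91%. Alpha-fetoprotein (AFP) had 306 and 1011 FPKM in PLC cells at 5 and 25 mM, while APOB had 219.8 and 230.6 and GPC3 28.2 and 21.3. The summed FPKM of the leukocyte list went from 4.27 to 13.9 there, that of the adipocyte list from 2.16 to 3.70 and that of the fibroblast list from 0.738 to 1.34, while in Huh7 cells they went from 37.4 to 39.9, from 2.22 to 3.20 and from 6.94 to 6.15. The leukocyte sum was nearly all LYZ and CD14, with PTPRC, CD68 and CD3E at 5 reads or fewer in each library. The adipocyte sum was mostly CFD, and the fibroblast sum mostly LUM in Huh7 and COL3A1 in PLC cells. The endothelial list, mostly PECAM1, had 0.122 and 0.310 FPKM in PLC cells and 2.37 and 2.55 in Huh7 cells. The part of these shifts, and of the lower depth of the PLC library at 25 mM, in the ratios of the members was not tested. Scaling by TMM lowers a log2 ratio with nothing added by 0.12 in PLC cells and by 0.04 in Huh7 cells, and by less for a low gene with the added 0.1, such as PNPLA3 in PLC cells (ratio 2.17 in place of 2.31). The numbers of members called remained 4 and 2 with it.

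Whether the response differed between the lines could not be tested, because 4 libraries leave no residual degree of freedom for it. As a description, the PLC ratio was divided by the Huh7 ratio, both with nothing added, with an exact conditional 95% interval for counting error. It was 0.3999 for PLIN2 (0.365 to 0.438) and 0.327 for DGAT2 (0.255 to 0.415), so both PLC ratios were below the Huh7 ratios. For GPAM it was 0.831 (0.737 to 0.936) and for LPIN1 1.17 (1.01 to 1.34), nearer to 1. PNPLA3 lay on the other side, with a quotient of 3.64 (1.95 to 6.94), as did DGAT1 with 1.30 (1.11 to 1.52), while PNPLA2 had 1.07 (0.912 to 1.24) and PLIN3 1.13 (1.01 to 1.26). PLIN4 had 1.197 (0.7496 to 1.90), and PLIN5, on few reads, 9.15 (1.76 to 91.6). No share over all genes stands beside these quotients, so they give no result about the members. DGAT2 and PNPLA3 were the 2 members with intervals on opposite sides of 1 in the lines, beside 15.1% of protein-coding genes expressed in both. With TMM scaling, chosen for this after the values were seen, PNPLA3 was the only such member, because the Huh7 interval of DGAT2 then ran from 0.986 to 1.17, and with DESeq2 size factors it ran from 0.992 to 1.17.

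Many members differed in level between the lines. In the same edgeR fit, with glucose as covariate, 7 of 10 members had an adjusted p-value under 0.05, 6 of them higher in Huh7 cells and 1 higher in PLC cells. Such calls were common, with 42.9% of all genes (21.8% higher and 21.1% lower in Huh7 cells) and 50.0% of protein-coding genes called between the lines. PNPLA3 was higher in Huh7 cells by a log2 fold change of 4.10 (standard error 0.46, edgeR adjusted p = 1.02e-05), 33.8-fold at 5 mM (interval 21.4 to 56.6) and 9.28-fold at 25 mM (6.42 to 13.9). GPAM followed with 2.71 (standard error 0.23, edgeR adjusted p = 9.36e-07), 5.99-fold and 7.21-fold. DGAT2 was higher in Huh7 cells by 2.16 (standard error 0.37, edgeR adjusted p = 0.000422), 2.64-fold at 5 mM and 8.09-fold at 25 mM.

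LPIN1 was higher in Huh7 cells by 1.203 on the log2 scale (standard error 0.24, edgeR adjusted p = 0.00134). PLIN2 was higher there by 1.16 (standard error 0.30, edgeR adjusted p = 0.00679), 1.42-fold at 5 mM and 3.56-fold at 25 mM, and without glucose as covariate its edgeR adjusted p was 0.225. PLIN5 was higher by 2.89 (standard error 0.80, edgeR adjusted p = 0.0105), on few reads, and by DESeq2 its adjusted p was 0.106. PLIN3 was the member higher in PLC cells, 3.33-fold at 5 mM and 3.76-fold at 25 mM (log2 fold change -1.83, standard error 0.23, edgeR adjusted p = 3.22e-05). DGAT1, PNPLA2 and PLIN4 did not pass, with log2 fold changes of 0.43, -0.20 and 0.91 (edgeR adjusted p = 0.208, 0.556 and 0.0786). The Huh7 to PLC ratio of DGAT1 was 1.54 at 5 mM (interval 1.38 to 1.72) and 1.19 at 25 mM (1.06 to 1.33), and that of PNPLA2 was 0.899 (0.803 to 1.005) and 0.844 (0.760 to 0.938).

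**Figure D3:**
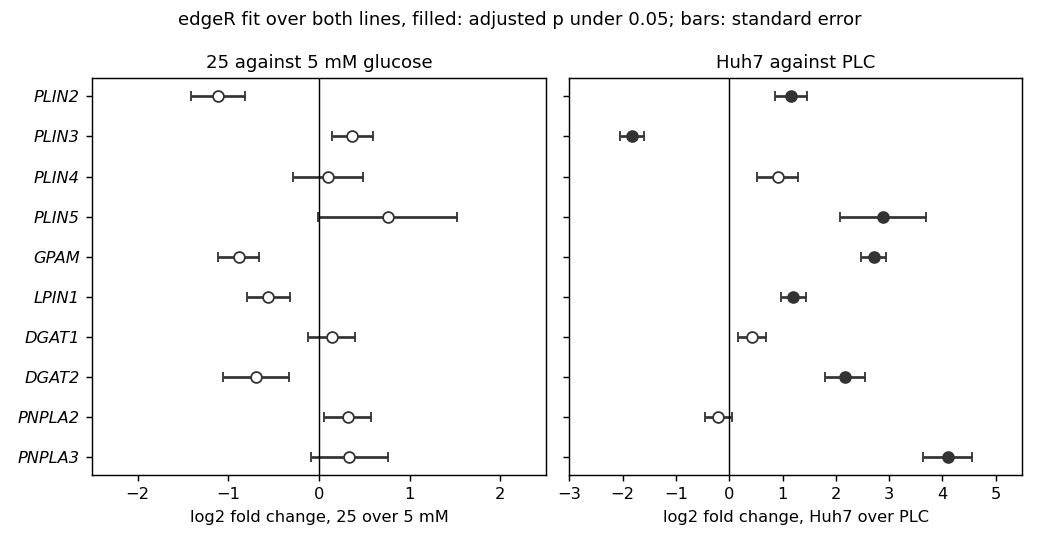
Log2 fold changes of the 10 genes from the edgeR fit over both lines, for 25 against 5 mM glucose (left) and Huh7 against PLC cells (right). Bars are standard errors and filled points have an adjusted p under 0.05: none on the left, and 7 of 10 on the right, where PLIN3 is the filled point below 0.

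Each step has several enzymes, so the make-up of each family was compared by FPKM. PLIN2 held 76.9% and 67.1% of the summed FPKM of the 5 perilipins in Huh7 cells at 5 and 25 mM, and 43.7% and 14.1% in PLC cells. PLIN3 held 20.7% and 30.1% in Huh7 cells against 55.6% and 84.8% in PLC cells, so PLC cells at 25 mM had a coat mRNA pool made up mostly of PLIN3. By reads without regard to length PLIN2 still led in PLC cells at 5 mM, with 58.4% against 40.6% for PLIN3. The summed FPKM of the family varied less, from 46.4 to 65.1 over the 4 libraries. PLIN1, the perilipin of adipocytes, had 11, 18, 4 and 6 reads. The ratio of PLIN2 to PLIN3 in FPKM was 3.72 (interval 3.43 to 4.05) and 2.23 (2.09 to 2.38) in Huh7 cells at 5 and 25 mM, and 0.786 (0.7503 to 0.824) and 0.167 (0.153 to 0.181) in PLC cells.

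DGAT1 led the DGAT pair by FPKM in all 4 libraries, with 59.1% and 57.3% in Huh7 cells against 71.2% and 90.1% in PLC cells. By reads without regard to length DGAT1 led in 2 libraries, both PLC. The length used for DGAT2 is larger (7904 against 4131 bases). It takes all annotated exon bases of the gene and is not the length of a transcript. The glycerol 3-phosphate acyltransferases differed more. GPAM held 63.7% and 55.6% of their FPKM in Huh7 cells but 11.2% and 9.67% in PLC cells. GPAT3, an enzyme of the endoplasmic reticulum, held 9.64% and 9.66% in Huh7 cells against 64.9% and 41.1% in PLC cells, and GPAT4 held the rest but for under 1% of GPAT2. GPAT3 itself was at 4.34 and 3.11 FPKM in the Huh7 and at 27.7 and 10.6 FPKM in the PLC libraries, a PLC ratio of 0.383 (interval 0.349 to 0.415). The summed FPKM of the 4 acyltransferases was 45.0 and 32.2 in Huh7 cells against 42.8 and 25.7 in PLC cells at 5 and 25 mM, lower at 25 mM in both.

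LPIN1 was a minor lipin, with between 6.46% and 17.6% of the FPKM of the 3 lipins, while LPIN2 held between 76.7% and 88.2%. Taken by reads without regard to length, LPIN1 held between 10.9% and 27.3% and LPIN2 between 71.2% and 85.5%. LPIN2 had 29.3 and 27.4 FPKM in Huh7 cells against 16.3 and 27.3 in PLC cells (PLC ratio 1.67, interval 1.60 to 1.76), so the summed lipin FPKM was 36.6 and 33.1 in Huh7 cells against 21.3 and 31.0 in PLC cells. Of the lipase pair, PNPLA3 made up 51.5% and 40.5% in Huh7 cells against 2.75% and 5.83% in PLC cells, beside PNPLA2. Counted by reads, PNPLA2 led in all 4 libraries, with 53.1% in Huh7 cells at 5 mM.

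**Figure D4:**
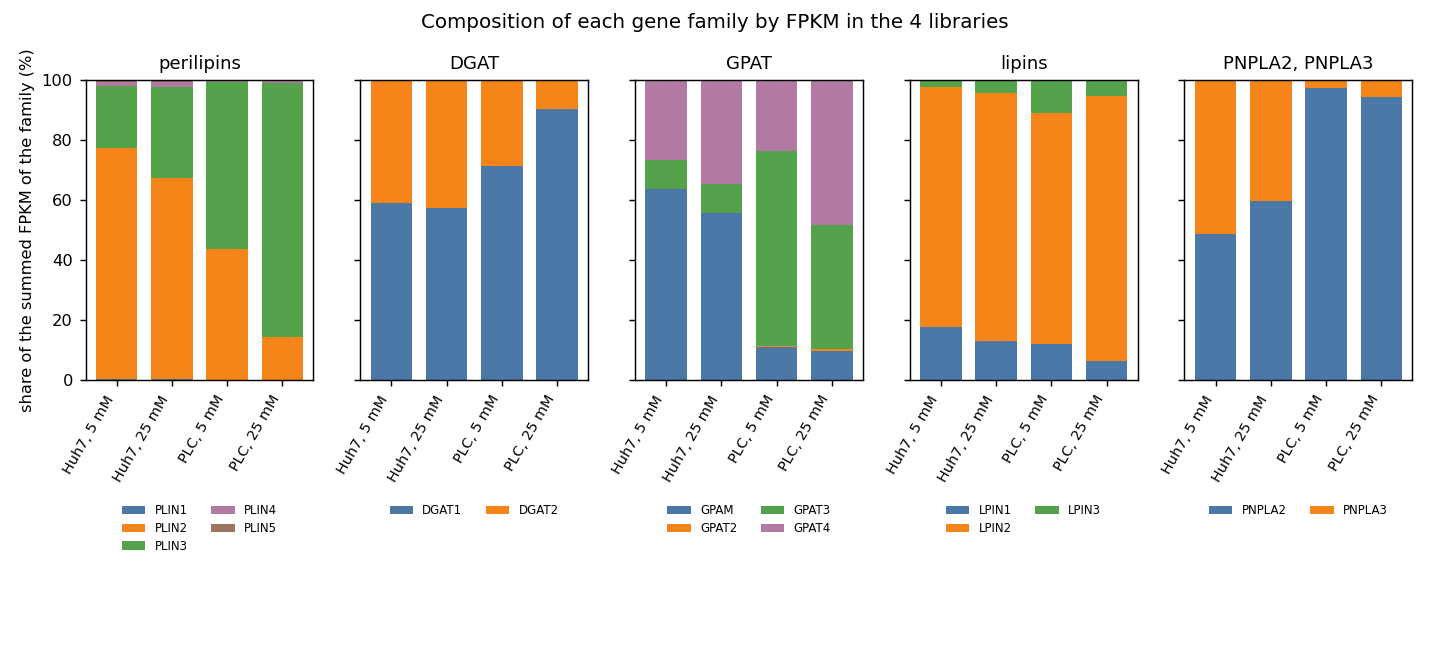
Share of each gene in the summed FPKM of its family (vertical axis, percent) in the 4 libraries, for perilipins, DGAT enzymes, GPAT enzymes, lipins and the PNPLA2 and PNPLA3 pair. PLIN3 replaces PLIN2 as the largest share from Huh7 to PLC cells (84.8% in PLC cells at 25 mM, though by reads without regard to length PLIN2 leads at 5 mM). GPAM holds 63.7% and 55.6% of its family in Huh7 cells at 5 and 25 mM, against 11.2% and 9.67% in PLC cells.

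The wider system was taken from 6 lists. They include the members, so the list counts in part repeat the member results. Of 20 genes of glycerolipid synthesis, 2 were past the upper and 5 past the lower limit in Huh7 cells, against 2 and 3 in PLC cells. Beside these counts and those of the other lists stand the shares over all genes, 27.8% in Huh7 and 43.3% in PLC cells (11.6% and 30.3% of protein-coding genes). The list counts take all listed genes, while these shares take only genes with the FPKM needed. In Huh7 cells AGPAT2 and LPIN3 were higher and GPAM, LPIN1, MOGAT1, MOGAT3 and GPD1 lower, and in PLC cells LPIN2 and GPD1 were higher and GPAM, GPAT3 and DGAT2 lower (2 and 4 with TMM scaling). GPD1 makes glycerol 3-phosphate and had 42, 30, 49 and 61 reads, with 0.514 and 0.261 FPKM in Huh7 cells and 0.423 and 0.994 FPKM in PLC cells (ratios 0.588 and 2.09). AGPAT2, chosen after its values were seen, had 27.2 and 47.5 FPKM in Huh7 cells (ratio 1.74, interval 1.62 to 1.87) and 6.26 and 9.12 in PLC cells (ratio 1.45). The list had a median log2 ratio of -0.12 for Huh7 and 0.30 for PLC cells.

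Of the 8 coat and CIDE genes, 1 (CIDEC) was past the lower limit in Huh7 cells, and in PLC cells CIDEC was past the upper and PLIN2 past the lower. CIDEC, a protein of droplet fusion, had 1.14 and 0.691 FPKM in Huh7 cells (ratio 0.637, interval 0.387 to 0.942) and 0.824 and 2.72 in PLC cells (ratio 3.05, interval 2.29 to 4.81). CIDEA and CIDEB are listed at 0 in all libraries, and 100% of the annotated exon bases of CIDEB, a CIDE protein of hepatocytes, also belong to other genes of the table. Its 0 therefore gives no level. BSCL2 (seipin) shares 51.9% of its bases in the same way.

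Of the 9 genes of droplet formation, METTL7B, which encodes a droplet-associated methyltransferase, was past the upper limit in both lines. It had 166 and 428 reads in Huh7 cells (5.65 and 10.4 FPKM, ratio 1.82, interval 1.53 to 2.21) and 366 and 1125 reads in PLC cells (8.80 and 51.0 FPKM, ratio 5.75, interval 5.15 to 6.54). Its shared log2 fold change was 1.65, higher in 2 of 2 lines (edgeR adjusted p = 0.0854). HSD17B11, a droplet dehydrogenase and the most abundant gene of the list, had 49.4 and 61.0 FPKM in Huh7 cells against 56.9 and 86.7 in PLC cells (ratios 1.24 and 1.52). HSD17B11 and METTL7B were past the upper limit in PLC cells and no gene past the lower, against 1 and 1 with TMM scaling, and the median log2 ratio was 0.03 and -0.06, the former below 0 with TMM scaling.

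Of the 12 genes of lipolysis, CES1 was past the lower limit in Huh7 cells and PNPLA3 past the upper in PLC cells. LIPA, the lysosomal acid lipase and the highest of them by the mean of the 4 libraries, though below MGLL in Huh7 cells, had 7.88 and 7.04 FPKM in Huh7 cells against 17.5 and 21.9 in PLC cells. Of the 5 acyl-CoA synthetases, which activate fatty acids, none was past a limit in Huh7 cells, while ACSL4 was higher and ACSL1 lower in PLC cells, where ACSL4 had 31.1 and 51.9 FPKM (ratio 1.67, interval 1.61 to 1.73) beside 159 FPKM at both concentrations in Huh7 cells. Of the 8 regulators none was past a limit in Huh7 cells and 1 was in PLC cells, MLXIPL (ChREBP, the carbohydrate-response factor). Its call rests on 38 and 44 reads (0.261 and 0.569 FPKM), close to the limit of 0.5 FPKM. SREBF1, a lipogenic factor and the highest of the list by the mean of the 4 libraries, though below NR1H2, USF1 and PPARG in PLC cells, had 31.1 and 28.9 FPKM in Huh7 cells against 8.90 and 11.4 in PLC cells.

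None of the genes of the 6 lists had an edgeR adjusted p-value under 0.05 for glucose, and 4 of 19 tested genes of synthesis were under 0.05 unadjusted, beside 8.51% of all genes. Between the lines, the edgeR calls over all genes were 5 higher in Huh7 and 3 higher in PLC cells among 19 tested genes of synthesis, and 4 and 5 among 11 of lipolysis, beside 42.9% of all genes called. All 4 tested acyl-CoA synthetases were higher in Huh7 cells, and 3 of 7 tested droplet formation genes (METTL7B, AUP1 and RAB18) were higher in PLC cells with none higher in Huh7 cells. MGLL, monoacylglycerol lipase, chosen after its values were seen, had 23.0 and 28.2 FPKM in Huh7 cells against 0.248 and 0.105 in PLC cells (log2 fold change 7.15, standard error 0.38, edgeR adjusted p = 1.29e-08).

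**Figure D5:**
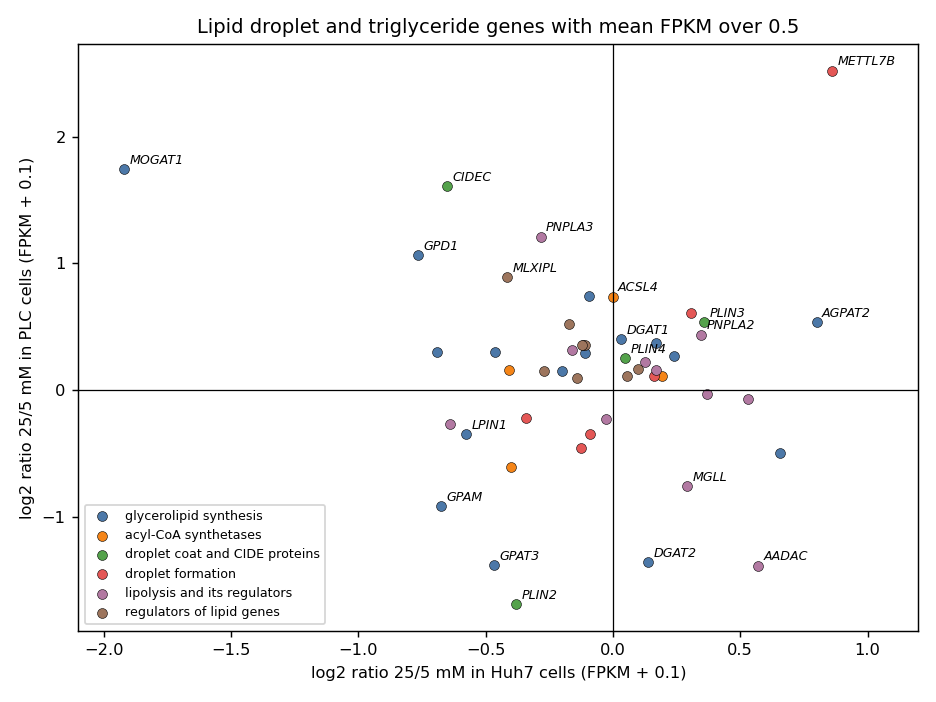
Log2 ratio of 25 to 5 mM glucose in Huh7 cells (horizontal) against PLC cells (vertical) for the 50 listed genes with a mean FPKM over 0.5, coloured by list, on the FPKM + 0.1 scale. METTL7B stands at the upper right (ratios 1.82 and 5.75), GPAM, PLIN2 and GPAT3 at the lower left, and CIDEC and GPD1 at the upper left, lower in Huh7 and higher in PLC cells.

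Genes with the most similar pattern were sought for the 3 members with the widest range of log2 FPKM, PNPLA3, GPAM and DGAT2. Likeness was the Euclidean distance between log2 values centred on their mean over the 4 libraries, among genes with at least 20 reads in each, so it rests on 4 points that share their libraries. Nearest to PNPLA3 were SDC1 (distance 0.221), MLXIPL (0.245) and AP001107.9 (0.3004). MLXIPL had 7.40 and 5.53 FPKM in Huh7 cells against 0.261 and 0.569 in PLC cells, with a ratio of 0.7503 in Huh7 cells (interval 0.676 to 0.826) and 1.86 in PLC cells (interval 1.38 to 3.47). Nearest to GPAM were DPP7 (0.329), RND3 (0.347) and EPB41L4B (0.397), and nearest to DGAT2 were GPR158 (0.171), ZNF506 (0.267) and PAK1 (0.293).

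In the GRCh38 positions of the table, PLIN2 spans 19108375 to 19149290 on the minus strand of chromosome 9 and GPAM 112149865 to 112215377 on the minus strand of chromosome 10. PLIN3 (4838341 to 4867694), PLIN4 (4502180 to 4518465) and PLIN5 (4522531 to 4535224) lie together on the minus strand of chromosome 19, and PNPLA3 lies at 43923792 to 43964488 on the plus strand of chromosome 22. DGAT2 spans 75759512 to 75801535 and PNPLA2 818914 to 825573 on the plus strand of chromosome 11, and LPIN1 11677595 to 11827409 on the plus strand of chromosome 2. Whether counting used the strand is not given in the sources used here, so reads in shared exons cannot be assigned with certainty. No other gene of the table covers an exon base of PLIN2 or GPAM. PLIN5 shares 21.7% of its exon bases with AC011498.4, which had 9, 16, 2 and 4 reads, PLIN3 18.3% with AC027319.1, which had 0 reads in all libraries, and DGAT1 11.1%, in part with HSF1. PNPLA3 shares 4.64% with SAMM50, a gene of 720, 1180, 1074 and 895 reads, against 19 and 30 reads of PNPLA3 in PLC cells, and the part of SAMM50 reads in the PLC values of PNPLA3 was not tested.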

How the data were processed

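RNA of 4 cultures was extracted with TRIzol, depleted of rRNA and made into directional libraries. The authors deposited raw read counts per gene with no normalization. HISAT2, featureCounts and hg38 are named in the submitters' processing notes, and versions, annotation release and strand setting are not given in the sources used here. Groups were taken from the sample titles. Of the table, 5 lines of a broken entry were left out. GENCODE release 44 gave a class for 38133 of 59652 genes by symbol, 19161 of them protein-coding. FPKM was computed from the counts, the table's gene lengths and library totals, and ratios had a pseudocount of 0.1. A floor of 3 reads stands for 0.0991 to 0.187 CPM. Tests used edgeR 4.0.16 (filterByExpr, TMM, quasi-likelihood, line and glucose as terms, Benjamini-Hochberg), with DESeq2 1.42.0 and limma 3.58.1 as alternatives. The edgeR fit was tried on simulated counts with a fixed spread. At 2-fold, 15 of 200 changed genes were recovered for glucose and 0 for line, so most such changes were missed there. At 4-fold, 172 and 160 were recovered. Intervals used SciPy 1.17.1. Alternatives were other pseudocounts, FPKM and read limits, scaling, filters, tools and models. Members, lists and motifs were chosen with earlier results of these data known.

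Named genes were all members, the most abundant gene of each list, listed genes beyond the limits in Huh7 and in PLC cells (20 or more reads in the better covered library), the 3 nearest patterns and overlapping genes. Markers came from lists of their own, and the other listed genes were named after their values were seen. Sequences came from the RefSeq promoter table.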

Additional observations from a re-analysis of the deposited data

Results flagged for a closer look

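DGAT2 and PNPLA3 had ratios on opposite sides of 1 in the 2 lines, with both counting intervals excluding 1. For DGAT2 the ratio was 1.10 for Huh7 and 0.390 for PLC cells. For PNPLA3 it was 0.821 for Huh7 and 2.31 for PLC cells, the latter on 19 and 30 reads. Neither difference was tested, since each line had 1 library per glucose concentration, and 15.1% of protein-coding genes expressed in both lines showed the same. The call for DGAT2 depends on the scaling: with TMM or DESeq2 size factors its Huh7 interval included 1 (lower ends 0.986 and 0.992), and PNPLA3 alone remained.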

How the results depend on the processing

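The 5 and 25 mM libraries of each line were paired through the line term of the edgeR fit. With 1 library a condition, no other pairing was possible, and no library could be left out of a ratio or of the fit. Of 80 member ratios recomputed with other pseudocounts or scalings, 74 stayed within their counting interval, and DGAT1 in Huh7 cells crossed 1 with TMM (0.995). Members called in Huh7 cells went from 2 to 1 with a pseudocount of 1 and to 0 with limits of 2 and 0.5, and those in PLC cells ranged from 3 to 5. Members with intervals on opposite sides of 1 went from 2 to 1 with TMM or DESeq2 size factors, an alternative chosen after seeing the data. Members called for glucose went from 0 to 2 by edgeR without a filter and to 1 by DESeq2, and members called between lines ranged from 6 to 7. By reads in place of FPKM, DGAT1 led its pair in 2 and not 4 libraries. The log2 fold change of PNPLA3 for glucose, 0.34 in edgeR, was -0.0013 by limma-voom and -0.22 without the cell line term (edgeR). The causes were not tested. All genes called for glucose numbered 88, and 526 without a filter, 27 with at least 10 counts in every library, 194 by DESeq2 and 0 without the cell line term (52 unadjusted), and those called between lines 9969, and 6340 with at least 10 counts in every library. All genes past the ratio limits numbered 6068 in Huh7 and 9409 in PLC cells, and 3092 and 5982 with a pseudocount of 1, 3427 and 5917 with the FPKM limit in both libraries, 11199 and 15409 without it, 3066 and 5253 with limits of 2 and 0.5, and 3175 and 5891 with at least 20 reads. Ratios of PLIN5 and PNPLA3 in PLC cells rest on at most 30 reads a library, and their size moved over 1.5 times with the pseudocount.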
